A study of Homo sapiens with 6 samples.

Results

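The ABCA lipid transporters described here are ABCA1, ABCA2, ABCA3, ABCA4, ABCA5, ABCA7, ABCA10, ABCA12 and ABCA13, 9 of the 62700 genes in the deposited gene table, taken by their symbols. They were chosen with their difference between the groups already known, so their values are given as a description and without a test. RNA was sequenced from human PC3 cells, an established prostate cancer line, that carried an shRNA against TTC3 (3 libraries) or a control shRNA (3 libraries). The labels call the first group a TTC3 knockdown and the second wild type, and both groups are from the same line and carry an shRNA. The labels do not state the hairpin, the time after its delivery, or whether the cells were a pool or a clone. Nothing in the labels says that the 3 libraries of a group came from separate cultures, so errors and p-values measure how far these libraries differ among themselves, and that may be technical variation.

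ABCA proteins are large membrane proteins in which a pair of ATP-binding cassettes drives the movement of lipids across or out of a membrane. ABCA1 hands cholesterol and phospholipid to apolipoprotein A-I at the cell surface, and its gene is a classic target of the oxysterol receptors LXR. ABCA2, ABCA3 and ABCA5 work in late endosomes, lysosomes and related storage organelles. ABCA4 moves retinoids in the photoreceptor and ABCA12 loads lipid into the lamellar granules of the epidermis.

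The stretch in front of the start site is shown for ABCA1, one of the members with the largest difference between the groups, for ABCA5, which was lower by less, for ABCA13, which was lower by less again, and for ABCA3, which was not past the threshold of the test used below. Each is the 250 bases before the RefSeq start site on GRCh38.p14, read in the direction of the gene, at chr9:104928156-104928405 (minus strand) for ABCA1, chr17:69327134-69327383 (minus strand) for ABCA5, chr16:2340729-2340978 (minus strand) for ABCA3 and chr7:48171208-48171457 (plus strand) for ABCA13. Capitals mark matches to 6 motifs searched on both strands. They were the E-box CACGTG, the GC box GGGCGG, the TATA box TATAAA, the CCAAT box, the AP-1 site TGANTCA and the direct repeat that LXR binds with RXR, which has AGGTCA at both ends of a spacer of 4 bases and was allowed 2 different letters.
ABCA1: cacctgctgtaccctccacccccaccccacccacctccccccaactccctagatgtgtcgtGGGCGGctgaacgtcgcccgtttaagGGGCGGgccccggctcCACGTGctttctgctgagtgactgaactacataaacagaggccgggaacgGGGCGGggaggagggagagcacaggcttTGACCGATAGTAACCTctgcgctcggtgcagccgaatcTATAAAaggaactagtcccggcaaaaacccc
ABCA5: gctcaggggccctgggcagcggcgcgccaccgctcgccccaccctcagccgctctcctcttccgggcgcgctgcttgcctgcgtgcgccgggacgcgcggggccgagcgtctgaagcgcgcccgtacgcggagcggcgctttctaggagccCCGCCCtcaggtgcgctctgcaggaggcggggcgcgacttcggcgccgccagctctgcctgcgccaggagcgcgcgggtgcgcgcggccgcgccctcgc
ABCA3: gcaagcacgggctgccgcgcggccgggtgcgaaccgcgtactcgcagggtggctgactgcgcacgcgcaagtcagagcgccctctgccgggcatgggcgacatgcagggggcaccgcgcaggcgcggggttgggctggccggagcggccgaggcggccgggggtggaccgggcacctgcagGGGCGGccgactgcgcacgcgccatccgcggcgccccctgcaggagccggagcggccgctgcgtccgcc
ABCA13: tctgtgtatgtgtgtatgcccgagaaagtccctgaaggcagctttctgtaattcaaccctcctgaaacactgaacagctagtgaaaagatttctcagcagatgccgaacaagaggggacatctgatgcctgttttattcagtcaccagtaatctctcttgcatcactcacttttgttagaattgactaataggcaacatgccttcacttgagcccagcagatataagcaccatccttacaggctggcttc

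The ABCA1 window held the direct repeat with 2 letters different, between 69 and 54 bases before the start and on the other strand, where it reads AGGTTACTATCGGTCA. It also held CACGTG between 147 and 142 bases before the start, GGGCGG in 3 places and TATAAA between 31 and 26 bases before the start. The ABCA3 and ABCA5 windows each held GGGCGG once, in ABCA5 on the other strand, and the ABCA13 window held none of the 6. Windows were found for 8 of the 9 members, 11 windows in all, and the direct repeat was in the ABCA1 window alone among them, against 2.03% of 35116 windows of the same length. GGGCGG stood in 5 of the 11 windows, against 42.6% of all windows, CACGTG in 2, against 6.34%, TATAAA in 2, against 10.7%, CCAAT in 3, against 32.0%, and TGANTCA in 1, against 6.57%. These matches are descriptions of letters, and no binding was measured.

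The libraries held 144655100 to 155526861 estimated counts in TTC3 shRNA cells and 143246356 to 154832203 in control shRNA cells. TTC3 itself averaged 196 ± 27.5 CPM, counts scaled by library size, in TTC3 shRNA cells, against 687 ± 7.86 CPM in control shRNA cells (SD, n = 3 each). KLK2 and KLK3, genes of androgen-responsive prostate cells, had no counts, and the epithelial keratin KRT8 averaged 166 CPM in TTC3 shRNA cells and 165 CPM in control shRNA cells. Of 10 tested markers of the line and of prostate, 4 fell and 3 rose, and none rose when any library other than TTC3 shRNA replicate 1 was left out. Replicate 1 of the TTC3 shRNA libraries stood apart from the other two. Its mitochondrial transcripts took 6.29% of counts, against 3.73% and 3.54% in TTC3 shRNA replicates 2 and 3 and 5.29% to 5.53% in control shRNA libraries, and its 7SL and 7SK RNAs took 5.43%, against 9.56% and 11.5% in those replicates and 6.31% to 6.97% in control shRNA libraries. Relative to the control mean and across 10797 genes, each doubling of transcript length went with a log2 CPM change of -0.02, -0.17 and -0.21 in replicates 1, 2 and 3 of the TTC3 shRNA group. The same slope lay between -0.0047 and 0.0061 in control shRNA libraries. The ABCA transcripts are long: the longest annotated transcript of a member had a median of 8154 bases, against 2576.5 over all tested genes.

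ABCA1 was lower in TTC3 shRNA cells by a factor of 3.68. Its counts were 2774, 2157 and 2198 in TTC3 shRNA libraries, against 10076, 9571 and 8938 in control shRNA libraries, or 16.5 ± 1.68 CPM against 60.7 ± 1.94 CPM (SD, n = 3 each). The 3 TTC3 shRNA libraries lay close together and the groups did not overlap. The log2 fold change was -1.88 ± 0.09 (SE) in the fit over all 24325 tested genes by edgeR, and -1.72 ± 0.06 with the length trend removed. The gene (ENSG00000165029.17) lies at chr9:104781002-104928237 on the minus strand of GRCh38. ABCA7, the nearest relative of ABCA1 and a phospholipid transporter whose gene carries risk variants for Alzheimer's disease, had 1770, 2648 and 2707 counts in TTC3 shRNA libraries, against 3626, 4008 and 3401 in control shRNA libraries. All 3 TTC3 shRNA libraries were below the controls, with replicate 1 the lowest. Its log2 fold change of -0.49 ± 0.18 was not past the threshold, an adjusted p of 0.05 over all tested genes. Without TTC3 shRNA replicate 1 the value was -0.28 and past it.

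**Figure D1:**
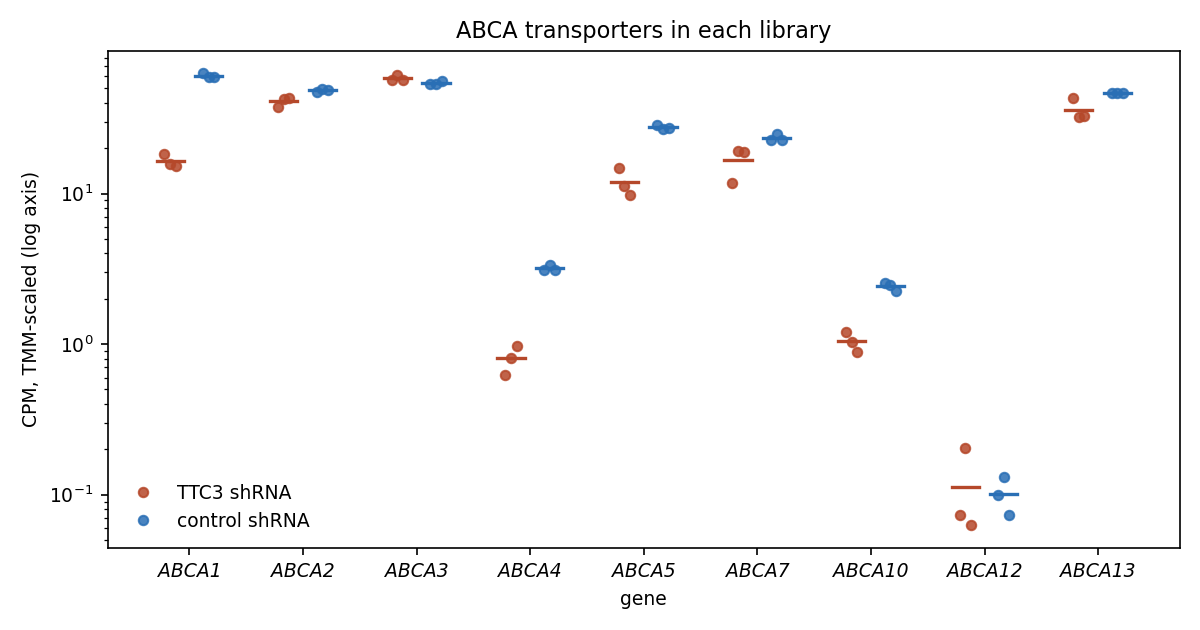
CPM (log axis, TMM-scaled) of the 9 ABCA genes, with a point for each of the 3 TTC3 shRNA libraries on the left and the 3 control shRNA libraries on the right of each gene, and bars at the group means. The groups are apart for every member other than ABCA12, and ABCA3 is the one member whose TTC3 shRNA points all lie above the controls, while scaling by library totals alone put its fold change at -0.03.

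Among the transporters of late endosomes and lysosomes, ABCA5 was lower by a factor of 2.32, while ABCA2 stood at 84.3% and ABCA3 at 107% of the control level. ABCA5 had 2215, 1532 and 1405 counts in TTC3 shRNA libraries, against 4566, 4360 and 4082 in control shRNA libraries. The groups were far apart, and TTC3 shRNA replicate 1 was the highest of its group. The log2 fold change was -1.22 ± 0.15, and -1.08 ± 0.11 with the length trend removed. ABCA2, known for sphingolipid and cholesterol handling in the nervous system, had 5628, 5812 and 6213 counts in TTC3 shRNA libraries, against 7615, 8020 and 7280 in control shRNA libraries, a log2 fold change of -0.25 ± 0.07. It was past the threshold with all 6 libraries, and no longer past it when TTC3 shRNA replicate 2 (-0.27) or 3 (-0.28) was left out, nor without control shRNA replicate 1 (-0.26), 2 (-0.23) or 3 (-0.24), or with the length trend removed (-0.10 ± 0.11).

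ABCA3, which carries phospholipid into the lamellar bodies of the lung's surfactant cells, had the highest level per kb of exon of the family in both groups. Its counts were 8570, 8463 and 8166 in TTC3 shRNA libraries, against 8587, 8685 and 8415 in control shRNA libraries. After TMM scaling this was 58.5 ± 2.82 CPM against 54.6 ± 1.53 CPM (SD, n = 3 each), with every TTC3 shRNA library above the controls. The log2 fold change of 0.10 ± 0.06 was not past the threshold. Scaling by library totals alone, which moved the median of all genes by -0.13 on the log2 scale, gave ABCA3 a value of -0.03 (below 0, but above that shift), and without TTC3 shRNA replicate 1 it was 0.14 and past the threshold. Over the 6 libraries, the genes closest to ABCA3 by Euclidean distance of log2 CPM centred on the control mean, among 14896 genes with a mean of at least 1 CPM, were PIP4K2B (0.0436), MED24 (0.0531) and SLC43A1 (0.0558).

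ABCA4, the retinoid transporter of photoreceptors, was the member with the largest fold, lower by a factor of 3.98, at a low level. It had 94, 111 and 140 counts in TTC3 shRNA libraries, against 497, 543 and 465 in control shRNA libraries, or 0.803 ± 0.176 CPM against 3.19 ± 0.148 CPM (SD, n = 3 each). Here TTC3 shRNA replicate 1 was the lowest of its group, opposite to ABCA1 and ABCA5, and the groups did not overlap. The log2 fold change was -1.99 ± 0.19, and -1.85 ± 0.22 with the length trend removed. ABCA12, whose loss causes harlequin ichthyosis, was close to the detection limit in these cells. It had 11, 28 and 9 counts in TTC3 shRNA libraries, against 16, 21 and 11 in control shRNA libraries, 48 in each group. Its log2 fold change was 0.15 ± 0.57 (SE), not past the threshold, and ran from -0.57 to 0.46 without single libraries. The ratio of summed counts, scaled for the libraries, was 1.09 with an exact interval of 0.716 to 1.66 at 95%. That interval covers counting error only and leaves out the spread between libraries. Differences within it, and larger ones within that spread, were not detectable at this depth.

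ABCA13, the largest protein of the family, had 6517, 4453 and 4690 counts in TTC3 shRNA libraries, against 7428, 7565 and 6968 in control shRNA libraries. TTC3 shRNA replicate 1 lay just under the controls and the other two well under them. The log2 fold change was -0.37 ± 0.12, and -0.17 ± 0.06, not past the threshold, with the length trend removed. It was also not past the threshold without TTC3 shRNA replicate 2 or 3 (-0.29 each) or without control shRNA replicate 1 (-0.37), 2 (-0.36) or 3 (-0.37). Of all members ABCA13 has the longest transcript, 17184 bases, and its values in TTC3 shRNA replicates 1, 2 and 3 against the control mean, were -0.11, -0.52 and -0.51 on the log2 scale. The slopes with transcript length given above were -0.02, -0.17 and -0.21 in the same replicates, and their part in the ABCA13 values, beyond the fit with the trend removed, was not tested.

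**Figure D2:**
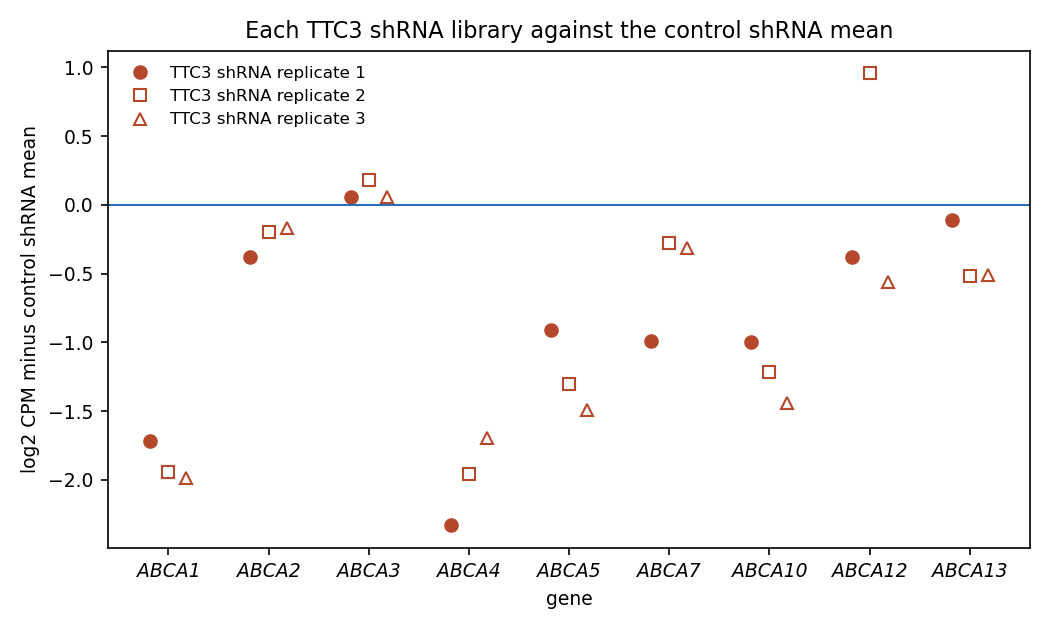
log2 CPM of the 9 ABCA genes in each TTC3 shRNA library (filled circles, open squares and open triangles for replicates 1, 2 and 3) minus the mean of the 3 control shRNA libraries, which is the line at 0. ABCA1 lies between -1.99 and -1.72 in all 3 libraries, while ABCA7 is lowest in replicate 1 at -0.99 and ABCA13 is lowest in replicates 2 and 3.

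ABCA10 and ABCA5 lie side by side on the minus strand of chromosome 17, at the head of a row of ABCA genes that goes on with ABCA6, ABCA9 and ABCA8. ABCA10, a member of little known function, had 182, 142 and 127 counts in TTC3 shRNA libraries, against 408, 399 and 336 in control shRNA libraries. Its log2 fold change of -1.22 ± 0.16 had the same size as that of ABCA5, and replicate 1 was again the highest TTC3 shRNA library. The annotated ends of ABCA5 and ABCA10 share 536 bases on the same strand, and reads there cannot be told apart by strand. Of the other genes in the row, ABCA9 fell to 0.0744 CPM in TTC3 shRNA cells, against 0.329 CPM in control shRNA cells (log2 fold change -2.13 ± 0.39, edgeR adjusted p = 0.0066). ABCA8 fell to 4.03 CPM in TTC3 shRNA cells, against 6.75 CPM in control shRNA cells (log2 fold change -0.75 ± 0.12, edgeR adjusted p = 0.0039). ABCA6, with 99 counts in TTC3 shRNA libraries and 179 in control shRNA libraries in all, had -0.72 ± 0.42 and was not past the threshold. MAP2K6, a kinase gene next to ABCA5 outside the row, had 37.5 CPM in TTC3 shRNA cells and 30.0 CPM in control shRNA cells. It was not past the threshold with all 6 libraries, and was past it, with higher values in TTC3 shRNA cells, without TTC3 shRNA replicate 1 or 3 or with the length trend removed.

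**Figure D3:**
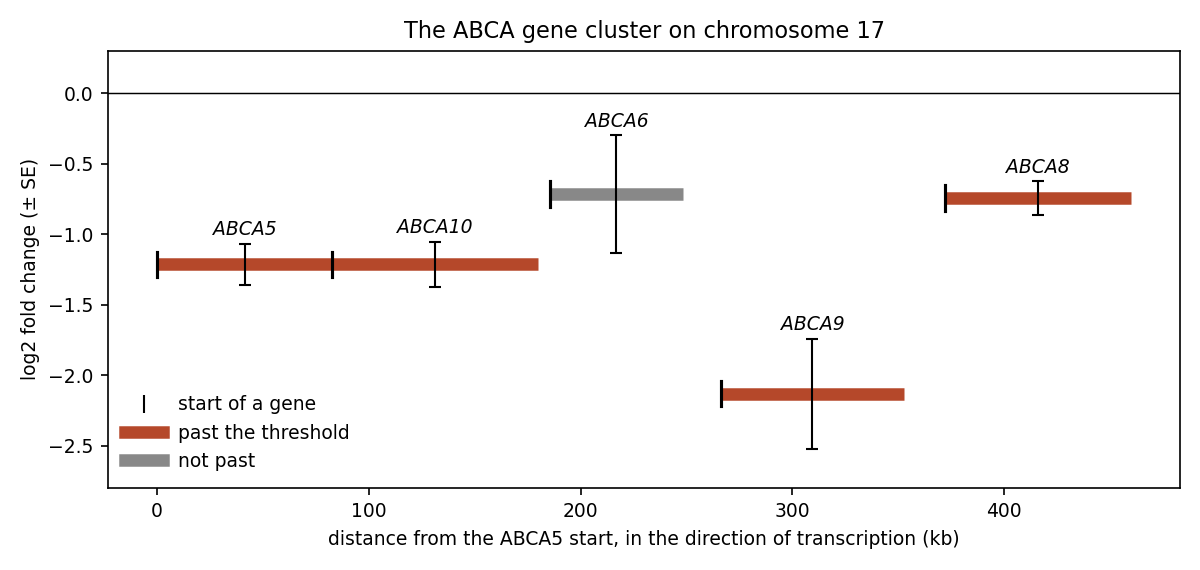
The 5 ABCA genes of chromosome 17 drawn to scale along the direction of transcription (kb from the start of ABCA5), with the height of each bar at its log2 fold change, TTC3 shRNA over control shRNA, and error bars of 1 SE. All 5 lie below 0, from -0.72 for ABCA6, which was not past the threshold, to -2.13 for ABCA9.

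In all, each of the 9 members passed the filter on low counts, and 6 were past the threshold with lower values in TTC3 shRNA cells, none with higher values. Of all tested genes 17.8% were called lower and 15.7% higher, and since the members were chosen on this contrast nothing is read from the count. By overlap, 7 members had every TTC3 shRNA library below every control shRNA library, against 27.0% of all genes, and ABCA3 had every one above, against 23.3%. The median log2 fold change was -0.49 over the members and -0.02 over all tested genes. With the length trend removed, ABCA1, ABCA4, ABCA5 and ABCA10 were still past the threshold, 4 of 9, against 19.8% of all genes, and the median was -0.36 over the members and -0.12 over all genes. These 4 were also called lower in every alternative fit and every fit without a library that was run. The count of members called lower was 7 without TTC3 shRNA replicate 1 and 4 without any of the other 5 libraries. Over all genes the same fits called 7065 lower and 6674 higher without TTC3 shRNA replicate 1, and 2711 to 3559 lower and 1835 to 2741 higher without another library, against 4338 lower and 3827 higher with all 6. Counts of calls without a library, here and for the gene groups below, stand beside these totals. In bulk RNA, less RNA per cell and fewer cells with the RNA cannot be told apart.

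**Figure D4:**
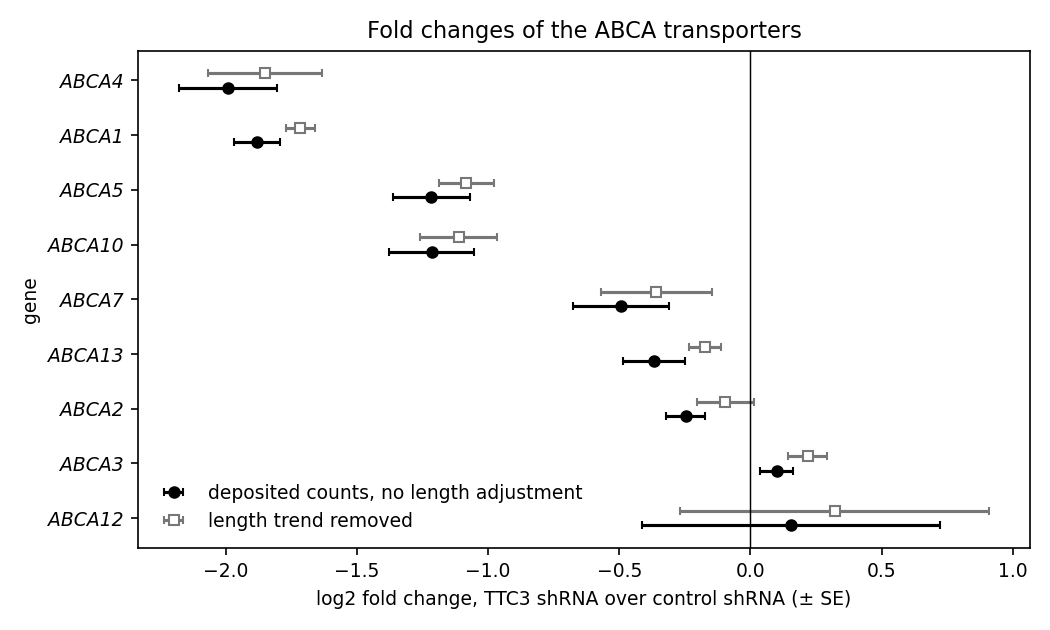
log2 fold change (TTC3 shRNA over control shRNA, ± 1 SE) of the 9 ABCA genes from the deposited counts (filled circles) and after removing the trend with transcript length (open squares). ABCA4, ABCA1, ABCA5 and ABCA10 stay below -1 under both, and ABCA2 and ABCA13 lie nearer 0 after it, ABCA2 at -0.10 against -0.25 before and ABCA13 at -0.17 against -0.37.

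Levels between the genes were compared as CPM per kb of exon. In TTC3 shRNA cells ABCA3 was highest at 7.50, followed by ABCA2 at 3.56, ABCA7 at 1.99, ABCA13 at 1.89, ABCA1 at 1.45, ABCA5 at 0.903, ABCA10 at 0.124, ABCA4 at 0.0941 and ABCA12 at 0.0120 CPM per kb. In control shRNA cells ABCA3 was again highest at 6.99, followed by ABCA1 at 5.35, ABCA2 at 4.23, ABCA7 at 2.80, ABCA13 at 2.44, ABCA5 at 2.10, ABCA4 at 0.374, ABCA10 at 0.288 and ABCA12 at 0.0107 CPM per kb. ABCA1 was thus in place 5 of the order in TTC3 shRNA cells and in place 2 in control shRNA cells. In TTC3 shRNA cells the library ranges of ABCA7 and ABCA13, of ABCA7 and ABCA1, and of ABCA10 and ABCA4 overlapped, while in control shRNA cells no neighbours in the order overlapped. By the longest transcript in place of all exons, ABCA2 came above ABCA1 in control shRNA cells, with overlapping library ranges, and ABCA5 above ABCA13.

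The transcript table held 19 transcripts of the members, matched by identifier, and 14 were tested. ENST00000374736.8, the full-length ABCA1 transcript, had 2533, 1955 and 1791 counts in TTC3 shRNA libraries, against 7798, 5360 and 5160 in control shRNA libraries (log2 fold change -1.44 ± 0.21). The matched ABCA1 transcripts held 91.7%, 90.7% and 82.0% of the gene's counts in TTC3 shRNA libraries, against 77.7%, 56.4% and 58.1% in control shRNA libraries. The remaining ABCA1 counts, 231, 201 and 395 in TTC3 shRNA libraries and 2242, 4173 and 3745 in control shRNA libraries, belong to no identifier of the annotation used. ENST00000370225.4 of ABCA4 had 91, 111 and 134 counts in TTC3 shRNA libraries, against 487, 543 and 456 in control shRNA libraries (log2 fold change -2.04 ± 0.25). These were the 2 transcripts past the threshold, against 2.6% of all tested transcripts called lower. By overlap, 7 of the 14 had every TTC3 shRNA library below the controls, against 16.9% of all transcripts. Leaving out TTC3 shRNA replicate 2 or 3 or any one control shRNA library left 0 member transcripts past the threshold, and leaving out TTC3 shRNA replicate 1 gave 5. Calls over all transcripts in those fits are not given here, so nothing about the members is read from these counts.

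How counts were split among transcripts differed more between libraries than the gene counts did. For ABCA5, ENST00000588877.5 had 1776, 828 and 809 counts in TTC3 shRNA libraries, against 2588, 3597 and 3213 in control shRNA libraries, without overlap. ENST00000392676.8, the longer ABCA5 transcript, had 439, 704 and 596 counts in TTC3 shRNA libraries, against 1978, 763 and 869 in control shRNA libraries, where replicate 1 stood high. For ABCA3, ENST00000301732.10 carried nearly all counts, with 8374, 8272 and 7625 in TTC3 shRNA libraries, against 8259, 8451 and 8246 in control shRNA libraries.

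Outside the 9, the gene table held 8 further genes with an ABCA symbol. Of the 5 listed and tested, 3 fell and none rose, with or without any one library. Beside ABCA8 and ABCA9 this was ABCA11P, a transcribed pseudogene, at 4.36 CPM in TTC3 shRNA cells and 7.49 CPM in control shRNA cells (log2 fold change -0.78 ± 0.13, edgeR adjusted p = 0.00405). ABCA15P, a pseudogene tested but not listed, had a log2 fold change of -0.40 ± 0.28 and was not past the threshold. ABCA3P1 and ABCA9-AS1 were not tested. SLC44A1, a choline transporter gene, is the nearest tested gene on 1 side of ABCA1, 316385 bases away. Its log2 fold change was -0.41 ± 0.13 (edgeR adjusted p = 0.042), and NIPSNAP3B on the other side of ABCA1 was not past the threshold. ARHGAP29 next to ABCA4 fell by 0.58 ± 0.13 (edgeR adjusted p = 0.016), while GCLM on its other side was not past the threshold. CNN2 next to ABCA7 fell by 0.28 ± 0.07 (edgeR adjusted p = 0.0195), and ARHGAP45 was not past the threshold. On neither side of ABCA2, ABCA3 or ABCA13 was the nearest tested gene past the threshold. CLIC3 beside ABCA2 had a log2 fold change of 0.13, and LINC02908, which overlaps ABCA2 on the opposite strand, had -0.31. MIR3677HG beside ABCA3 had 0.42, and ABCA17P, which overlaps ABCA3 on the opposite strand, had -0.69. UPP1 had -0.07 on 1 side of ABCA13, and FIGNL1, 1796632 bases away on the other, had -0.12. The calls of SLC44A1, ARHGAP29 and CNN2 were lost without control shRNA replicate 1, 2 or 3, those of SLC44A1 and ARHGAP29 also when TTC3 shRNA replicate 2 was left out, and that of SLC44A1 also when replicate 3 of that group was. ATIC, a purine synthesis gene beyond ABCA12, rose to 108 CPM in TTC3 shRNA cells, against 67.0 CPM in control shRNA cells (log2 fold change 0.68 ± 0.09, edgeR adjusted p = 0.00181). SNHG31, which overlaps ABCA12 on the opposite strand, had 2.19 CPM in TTC3 shRNA cells and 1.32 CPM in control shRNA cells, above ABCA12 itself. Whether the strand was used in counting is not stated, so reads of this pair cannot be told apart. The same holds where LINC02908 overlaps ABCA2 and where ABCA17P overlaps ABCA3.

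ABC transporters of subfamilies B to G moved in both directions: of 30 tested, 8 fell, 6 rose and 16 were not past the threshold, with a median log2 fold change of 0.07. ABCG1, which exports cholesterol to HDL and shares LXR control with ABCA1, fell to 319, 322 and 335 counts in TTC3 shRNA libraries, against 1846, 2111 and 1837 in control shRNA libraries (log2 fold change -2.44 ± 0.11, edgeR adjusted p = 1.65e-05). ABCC3, an organic anion exporter, fell to 55.2 CPM in TTC3 shRNA cells, against 82.1 CPM in control shRNA cells (log2 fold change -0.57 ± 0.06, edgeR adjusted p = 0.000478). TAP1, which carries peptides into the endoplasmic reticulum for antigen display, fell to 27.9 CPM in TTC3 shRNA cells, against 50.6 CPM in control shRNA cells (edgeR adjusted p = 0.000971). ABCC2, a conjugate exporter, fell to 0.639 CPM in TTC3 shRNA cells, against 1.33 CPM in control shRNA cells (edgeR adjusted p = 0.00233). ABCC12 had no counts in TTC3 shRNA libraries and 82 in control shRNA libraries, at least 25.0-fold lower against a floor of 3 counts over the group. Leaving out a library changed these counts: 5 fell without TTC3 shRNA replicate 2 or without any one control shRNA library, 13 rose without TTC3 shRNA replicate 1, and 3, 2 and 3 rose without control shRNA replicates 1, 2 and 3.

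The LXR receptors, their RXR partners and LXR targets other than ABCA1 did not move one way. Of 16 tested, 6 fell, 4 rose and 6 were not past the threshold, with a median of 0.04. ABCG1 led the genes that fell. PLTP, which transfers phospholipid between lipoproteins, rose to 83.4 CPM in TTC3 shRNA cells, against 60.0 CPM in control shRNA cells (log2 fold change 0.48 ± 0.06, edgeR adjusted p = 0.00127). APOC1, a small apolipoprotein, rose to 0.575 CPM in TTC3 shRNA cells, against 0.208 CPM in control shRNA cells (edgeR adjusted p = 0.00397). Without TTC3 shRNA replicate 1 the genes that fell were 6 and those that rose were 9. Without any other single library 4 fell, and 4 rose without control shRNA replicate 1 and 3 without each of the rest.

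Of 17 genes of sterol sensing and cholesterol synthesis, 6 fell, 4 rose and 7 were not past the threshold, with a median of 0.01. INSIG2, which holds the sterol sensor SCAP in the endoplasmic reticulum, fell by 1.01 ± 0.07 on the log2 scale (edgeR adjusted p = 0.000151). HMGCS1, an early enzyme of cholesterol synthesis, fell by 0.57 ± 0.10 (edgeR adjusted p = 0.00549). DHCR7, a late reductase of the pathway, rose by 0.44 ± 0.07 (edgeR adjusted p = 0.00482). The genes that fell were 3 without TTC3 shRNA replicate 2 or any one control shRNA library, and those that rose were 7 if TTC3 shRNA replicate 1 was left out, 1 if replicate 2 was, and 1, 2 and 1 without control shRNA replicates 1, 2 and 3.

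Of 15 genes of lipid export from late endosomes and lysosomes, 2 fell, 2 rose and 11 were not past the threshold, with a median of 0.15. SCARB1, the HDL receptor, rose by 0.62 ± 0.06 on the log2 scale (edgeR adjusted p = 0.000371). PSAP, the precursor of the saposins that present sphingolipids to lysosomal enzymes, rose to 879 ± 145 CPM in TTC3 shRNA cells, against 559 ± 10.8 CPM in control shRNA cells (SD, n = 3 each), an edgeR adjusted p of 0.00698. OSBPL1A, an oxysterol-binding protein of late endosomes, fell by 0.55 ± 0.06 (edgeR adjusted p = 0.000619). VPS13C, a lipid transfer protein with a transcript of 14579 bases, fell by 0.87 ± 0.15 (edgeR adjusted p = 0.00555). Without TTC3 shRNA replicate 1, where calls over all genes also went up, 7 fell and 8 rose.

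Of 20 phospholipid flippases and scramblases, the other proteins that move lipid between leaflets, 9 fell, 4 rose and 7 were not past the threshold, with a median of -0.24. PLSCR1, a scramblase, fell by 1.18 ± 0.07 on the log2 scale (edgeR adjusted p = 7.22e-05). ATP9A, an endosomal flippase-type ATPase, fell to 111 CPM in TTC3 shRNA cells, against 270.0 CPM in control shRNA cells (edgeR adjusted p = 0.000118). ATP10A, a flippase of the plasma membrane, fell by 2.07 ± 0.16 (edgeR adjusted p = 0.000178). VMP1, a scramblase of the endoplasmic reticulum, fell to 140 CPM in TTC3 shRNA cells, against 323 CPM in control shRNA cells (edgeR adjusted p = 0.000278). Without TTC3 shRNA replicate 1, 13 fell and 6 rose, and without replicate 2 or 3 of that group 7 or 8 fell and 3 rose. Without any one control shRNA library 7 fell, and those that rose were 0, 1 and 2 without control shRNA replicates 1, 2 and 3.

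**Figure D5:**
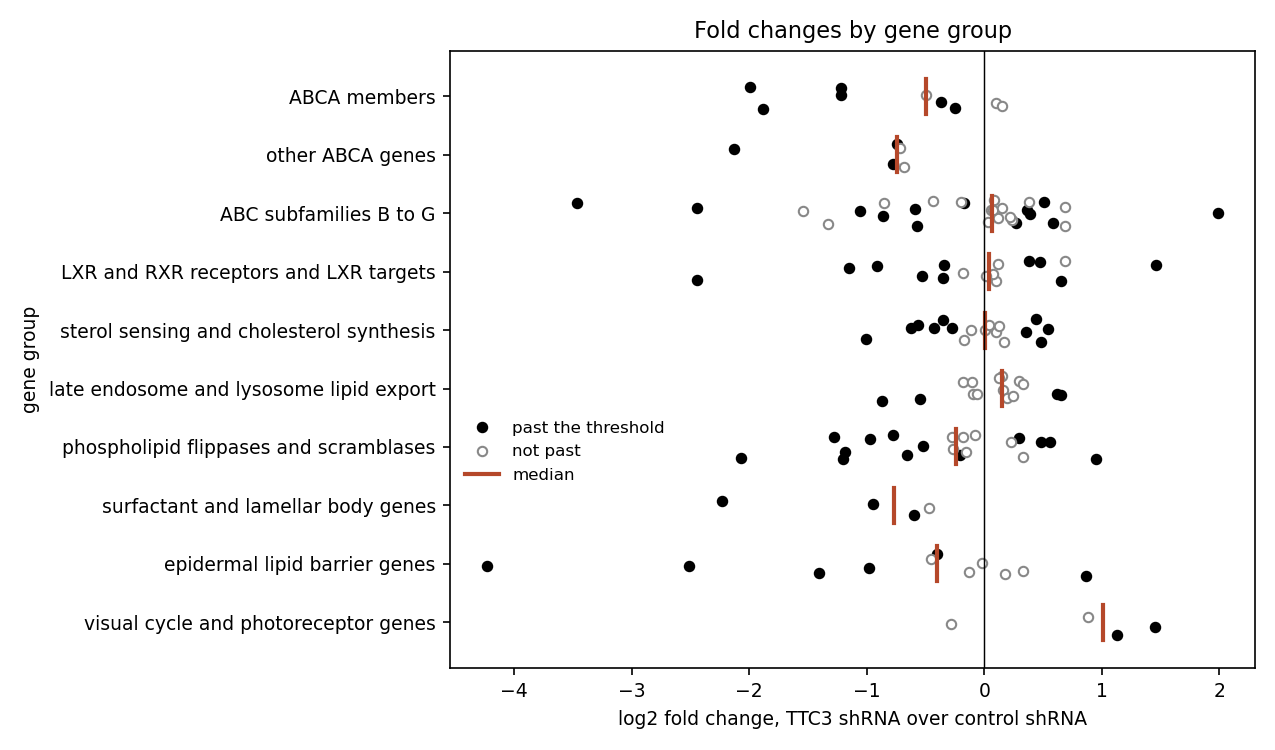
log2 fold change (TTC3 shRNA over control shRNA) of the tested genes of each group, with filled points past the threshold, open points not past it and a bar at the median. ABCC12, without counts in TTC3 shRNA cells, is not drawn. The medians run from -0.77 for surfactant and lamellar body genes (4 tested) to 1.01 for visual cycle and photoreceptor genes (4 tested).

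The genes that work beside ABCA3, ABCA12 and ABCA4 in lung, skin and retina were tested only in part, since many had too few counts. Of 10 surfactant and lamellar body genes 4 were tested, and 3 fell and none rose, with or without any one library. They were LPCAT1, an enzyme that makes surfactant phosphatidylcholine (log2 fold change -0.60 ± 0.07, edgeR adjusted p = 0.00109), SFTPD, surfactant protein D, with 62 counts in TTC3 shRNA libraries and 319 in control shRNA libraries (edgeR adjusted p = 0.00115), and LAMP3, a lamellar body membrane protein (log2 fold change -0.95 ± 0.18, edgeR adjusted p = 0.00695). Of 11 tested epidermal lipid barrier genes 5 fell, 1 rose and 5 were not past the threshold, with a median of -0.40. UGCG, which makes the glucosylceramide that ABCA12 carries, fell to 17.3 CPM in TTC3 shRNA cells, against 46.0 CPM in control shRNA cells (log2 fold change -1.41 ± 0.10, edgeR adjusted p = 0.00016). ALOXE3, an epidermal lipoxygenase, fell by 0.98 ± 0.15 (edgeR adjusted p = 0.00297). PNPLA1, an acylceramide enzyme, fell to 24 counts in TTC3 shRNA libraries, against 151 in control shRNA libraries (edgeR adjusted p = 0.00471). CERS3, a ceramide synthase, had 3 counts in TTC3 shRNA libraries and 69 in control shRNA libraries, a ratio of 0.0475 with an exact interval of 0.00956 to 0.145 at 95% for counting error only. The genes of this list that fell were 3 without TTC3 shRNA replicate 2 or control shRNA replicate 1 or 2, without CERS3 among them, and those that rose were 2 if TTC3 shRNA replicate 1 was left out and 0 if replicate 2 was. Of 4 tested visual cycle and photoreceptor genes 2 rose and none fell. LRAT, which esterifies retinol, had 199 counts in TTC3 shRNA libraries and 79 in control shRNA libraries (log2 fold change 1.45 ± 0.25, edgeR adjusted p = 0.00542), and ROM1, an outer segment protein, rose to 5.08 CPM in TTC3 shRNA cells, against 2.32 CPM in control shRNA cells (edgeR adjusted p = 0.0149). Leaving out TTC3 shRNA replicate 1 gave 1 gene of this list that fell. The call of ROM1 was lost without TTC3 shRNA replicate 2 or without control shRNA replicate 1 or 3.

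ABCA1 and ABCG1 are high in macrophages, whose markers were under 1 CPM each in these libraries. Of 8 macrophage and leukocyte markers 3 were tested and all 3 fell, CD14 to 0.351 CPM in TTC3 shRNA cells, against 0.890 CPM in control shRNA cells (edgeR adjusted p = 0.00224), ITGAM to 0.119 CPM in TTC3 shRNA cells, against 0.360 CPM in control shRNA cells (edgeR adjusted p = 0.0108), and LYZ to 14 counts in TTC3 shRNA libraries, against 271 in control shRNA libraries (edgeR adjusted p = 0.00499). The call of ITGAM was lost without control shRNA replicate 2. The list summed to 0.489 to 0.564 CPM in TTC3 shRNA libraries and 1.89 to 2.11 CPM in control shRNA libraries, and CD163 and TYROBP had no counts. Of 8 keratinocyte markers 2 were tested and neither was past the threshold (1 was, without TTC3 shRNA replicate 1). KRT1, KRT5, LORICRIN and IVL had no counts and the list summed to 6.82 to 8.65 CPM in TTC3 shRNA libraries and 8.37 to 8.97 CPM in control shRNA libraries. The part of these markers in the ABCA values was not tested.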

How the data were processed

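The deposited tables hold estimated counts per gene and per transcript, as whole numbers not scaled for depth. Per the submitters' processing notes, the authors used Trim Galore, STAR, StringTie and hg38. The sources used here give neither their versions nor the annotation release, nor whether strand was used in counting. Total RNA was rRNA-depleted and made into directional libraries, per the labels' protocols.

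Libraries were grouped by title. The 24325 genes that passed filterByExpr in edgeR 4.0.16 (R 4.3.3) were TMM-scaled and compared by its quasi-likelihood test, with Benjamini-Hochberg adjusted p below 0.05 over all tested genes as the threshold, and the 53805 transcripts likewise. SE is the log2 fold change divided by the square root of F. CPM values are counts scaled to 1000000 per TMM-scaled library, and CPM per kb divides by the union of exons. Positions and lengths came from GENCODE 29, which held 94.0% of the tested genes. The length trend was a lowess curve of log2 CPM minus control mean on transcript length in each library, used as an offset. Sequences are from RefSeq. The test was also run on simulated independent counts. These lacked the shift of TTC3 shRNA replicate 1 and the slopes with transcript length, so that check does not cover them. Intervals and the floor of 3 counts cover counting error only, since reads are not independent molecules.

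Named were all 9 members, up to 4 genes past the threshold per list by adjusted p, the nearest tested neighbours, and the 3 genes most like the member with the highest mean CPM. ABCC12 was named, and the direct repeat search and the genes most like ABCA1 were added, after seeing the data. Members, lists and markers were chosen with earlier results of these data known. Other settings were DESeq2 1.42.0, limma 3.58.1, other scalings and filters, removal of the length trend, a replicate block and leaving out each library. Overlapping and near-identical genes are uncertain.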

Additional observations from a re-analysis of the deposited data

How the results depend on the processing

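Over 16 alternative settings, ABCA1, ABCA4, ABCA5 and ABCA10 kept their direction and their side of the threshold. ABCA2 was not past the threshold with the length trend removed (-0.10), with no filter (-0.24), with the replicate block (-0.25) or with the replicate block and the length trend removed (-0.11). ABCA13 was not past it with DESeq2 size factors (-0.36), with the length trend removed (-0.17), with no filter (-0.36), with the replicate block (-0.38) or with the replicate block and the length trend removed (-0.17). ABCA7 was past it with DESeq2 (-0.48) and with library totals alone (-0.63). Without single libraries the log2 fold change ran from -0.28 to -0.17 for ABCA2, -0.50 to -0.29 for ABCA13, -0.61 to -0.28 for ABCA7 and 0.062 to 0.14 for ABCA3. The members called lower ran from 4 to 7, those called higher from 0 to 1, the listed genes called higher from 12 to 46 and the member transcripts called lower from 0 to 5. LAMP2, at 0.12 with all libraries, ran from -0.15 to 0.28. With the replicate block, 0 member transcripts were called lower. Calls over all transcripts in these fits are not given here, so nothing is read from the member transcript counts. The deviations of same-numbered libraries had correlations of 0.045, 0.039 and -0.0058, against -0.052 to 0.019 for libraries with different numbers. With 3 libraries per group these values cannot settle whether the replicate numbers pair the libraries. By the longest transcript, control levels were 5.78 for ABCA1, 5.97 for ABCA2, 8.26 for ABCA3, 0.437 for ABCA4, 3.36 for ABCA5, 3.43 for ABCA7, 0.381 for ABCA10 and 2.71 CPM per kb for ABCA13, by construction above those per kb of all exons. Other causes were not tested. Depth limits ABCA12, with 48 counts in each group.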

Other observations

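Chosen after the values were seen, the genes whose 6 library values lay closest to those of ABCA1, by the distance used for ABCA3, were PLXNC1 (0.0678), CALB1 (0.107) and SLFN13 (0.130). PLXNC1, a semaphorin receptor, had 690, 547 and 566 counts in TTC3 shRNA libraries, against 2506, 2478 and 2332 in control shRNA libraries. CALB1, a calcium-binding protein, averaged 10.9 ± 0.662 CPM in TTC3 shRNA cells and 40.7 ± 1.86 CPM in control shRNA cells (SD, n = 3 each). PRO1804, annotated inside ABCA10 on the same strand, averaged 0.241 CPM in TTC3 shRNA cells and 0.807 CPM in control shRNA cells, so its reads and those of ABCA10 cannot be told apart by strand.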
